A study of Oryctolagus cuniculus with 17 samples.

Results

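The genes of cholesterol synthesis, of its SREBP control and of fatty acid synthesis were followed in lungs of preterm rabbits kept in hyperoxia or normoxia. The genes were chosen by name, as the entries whose human gene symbol stood in a list of 28 symbols, and the entry with the highest total count was kept for each symbol. The count table held 22 of the 28 symbols among its 13827 genes: 11 of 13 sterol synthesis enzymes, 3 of 4 SREBP pathway regulators and 8 of 11 fatty acid synthesis enzymes. All 22 passed the filter on low counts. MVD, DHCR7, SREBF1, FASN, ELOVL1 and FADS1 were not analysed here.

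The RNA came from homogenates of the right lung of New Zealand White pups, all delivered preterm by cesarean section on day 28 of gestation and all fed a milk replacer in incubators. The hyperoxia groups HT3, HT5 and HT7 breathed 95% oxygen and the normoxia groups NT3, NT5 and NT7 breathed 21% oxygen, until postnatal day 3, 5 or 7. Each group had 3 samples, except HT5 with 2. Poly(A) RNA was sequenced as stranded libraries, and the 17 samples held between 14508362 and 19961087 counts in the table. Levels are given as CPM, the count relative to the TMM-scaled library size, and changes as log2FC with the standard error (SE) of the fit. HT5 replicates 1 and 2, and NT7 replicate 1 against the rest of NT7, stood apart for many of these genes. Values with a sample left out are given by name only for the 22 genes. A gene was called when the adjusted p-value of edgeR's quasi-likelihood test, over 13142 genes, was below 0.01. Because whole lung was measured, fewer cells of a type and less RNA per cell cannot be told apart.

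Cholesterol is built from acetyl-CoA through mevalonate, farnesyl diphosphate, squalene and lanosterol, and fatty acids are built from acetyl-CoA through malonyl-CoA and then lengthened, desaturated and activated. SREBP transcription factors are held in the endoplasmic reticulum by INSIG proteins when sterols are abundant and are released by SCAP and cut in the Golgi when sterols are scarce, after which they raise the genes of both pathways. In the lung, alveolar type 2 cells use both products for surfactant, whose main lipids are phosphatidylcholines with a share of cholesterol.

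Hyperoxia changed few of these genes. On day 7, 3 of the 22 genes were called: ACSL3 and ACACA, both of fatty acid synthesis, rose by 1.81-fold and 1.67-fold, and the sterol enzyme LSS fell by 31.7%. No gene of the 22 was called on day 3 or day 5, and none changed by more than 2 on the log2 scale on any day. Over all genes tested, 0.205% were called on day 3, 16.2% on day 5 and 33.6% on day 7, so that the share of these genes called on day 7 was lower than that of all genes. No test was made of that difference.

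**Figure D1:**
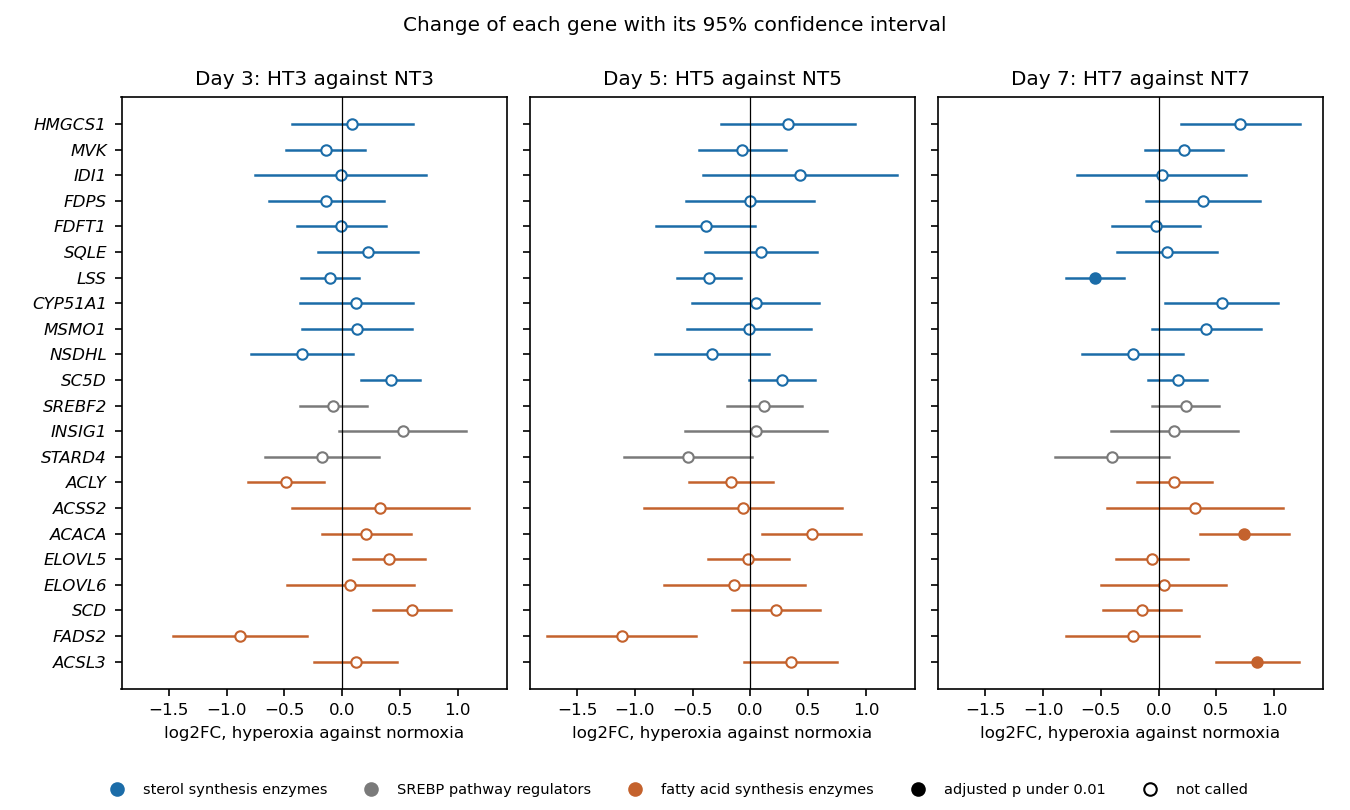
The horizontal axis is the log2FC of hyperoxia against normoxia and the rows are the 22 genes, coloured by list, with 1 panel per day; bars are 95% confidence intervals and filled points are called genes. The only filled points are LSS, ACACA and ACSL3 on day 7, and most intervals of the other genes cross 0.

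The fatty acid genes called on day 7 stand at the entry and the exit of the pathway. ACACA encodes acetyl-CoA carboxylase, which makes malonyl-CoA, the committed step of fatty acid synthesis (chromosome 19, 25527496 to 25843562, plus strand, OryCun2.0). Its level on day 7 was 115, 128 and 121 CPM in HT7 and 68.2, 65.5 and 84.0 CPM in NT7. The 3 HT7 samples were close together and all above NT7. The log2FC was 0.74 (SE 0.18, 95% interval 0.36 to 1.13, adjusted p = 0.00376). On day 5 the HT5 samples, at 137 and 103 CPM, were also above NT5, at 96.5, 77.5 and 75.9 CPM, but the change of 0.53 was not called (SE 0.20, adjusted p = 0.0558). On day 3 the HT3 samples, at 61.9, 98.8 and 90.5 CPM, overlapped NT3, at 88.2, 63.8 and 65.7 CPM. The call on day 7 was lost without HT7 replicate 3 (adjusted p = 0.0103), without NT7 replicate 1 (0.0167) and without NT7 replicate 2 (0.0205), while the log2FC stayed between 0.67 and 0.86 whichever sample of that day was left out.

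ACSL3 encodes a long-chain acyl-CoA synthetase that activates fatty acids for use in lipids and on lipid droplets (chromosome 7, 164260187 to 164415633, plus strand). It measured 159, 114 and 111 CPM in HT7 and 83.1, 53.1 and 76.1 CPM in NT7. All HT7 samples lay above NT7, with HT7 replicate 1 well above the other two. The log2FC was 0.85 (SE 0.17, 95% interval 0.50 to 1.21, adjusted p = 0.000825) and remained called whichever of the 6 samples of that day was left out, though not with the samples of day 7 fitted alone (0.86, adjusted p = 0.0130). In HT5 the levels were 83.5 and 94.1 CPM against 75.1, 64.2 and 70.2 CPM in NT5, which did not overlap but gave an uncalled change of 0.35 (adjusted p = 0.165). On day 3 the values in HT3, 74.3, 63.0 and 81.9 CPM, overlapped those in NT3, 72.7, 64.1 and 65.3 CPM.

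LSS, lanosterol synthase, closes the squalene chain into the first sterol (chromosome 14, 163767705 to 163796346, plus strand). It measured 70.5, 79.0 and 58.2 CPM in HT7 and 108, 102 and 94.6 CPM in NT7. Every HT7 sample was below every NT7 sample. The log2FC was -0.55 (SE 0.12, 95% interval -0.80 to -0.30, adjusted p = 0.00142), and the call held whichever sample of day 7 was left out, though not with the samples of day 7 fitted alone (-0.54, adjusted p = 0.0176). In HT5 LSS measured 79.3 and 64.4 CPM against 95.2, 89.1 and 92.3 CPM in NT5, a change of -0.36 with an adjusted p of 0.0499. Without HT5 replicate 2 that change was -0.23, and without HT5 replicate 1 it was -0.52. On day 3 the change was -0.11 (adjusted p = 0.725), with 75.7, 85.2 and 92.5 CPM in HT3 and 90.8, 92.1 and 89.6 CPM in NT3. LSS was thus the sole sterol enzyme of the 11 called against normoxia, and its direction was opposite to that of 8 of the other 10 on day 7.

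**Figure D2:**
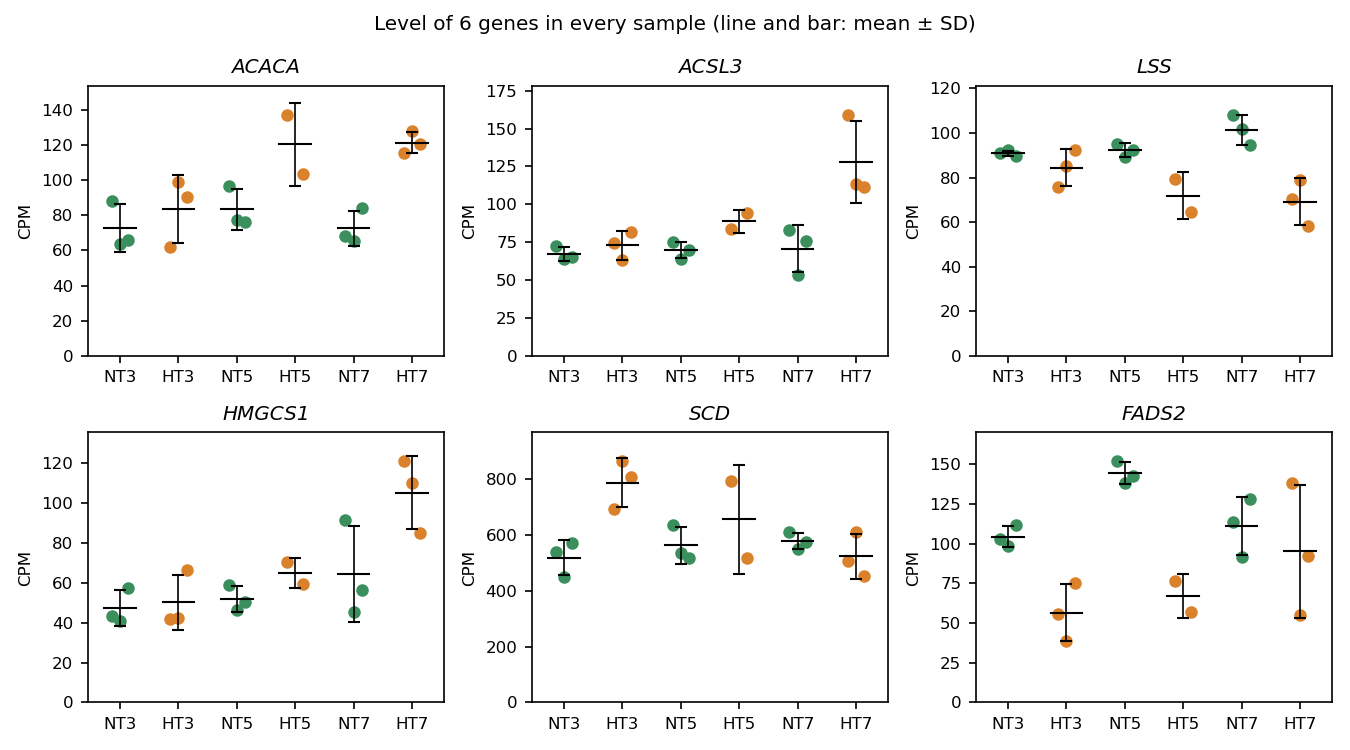
The vertical axes, starting at 0, give the level in CPM of ACACA, ACSL3, LSS, HMGCS1, SCD and FADS2, and the horizontal axes the 6 groups; points are samples, and lines with bars are means with SD. HT7 lies above NT7 for ACACA and ACSL3 and below it for LSS, SCD is raised in HT3, and FADS2 is low in HT3 and HT5.

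Along the sterol pathway, only LSS was called on day 7, and no test compared early with late enzymes. HMGCS1, the cytosolic HMG-CoA synthase ahead of the mevalonate step (chromosome 11, 64085210 to 64098813, minus strand), measured 121, 110 and 84.8 CPM in HT7 and 91.6, 45.5 and 56.2 CPM in NT7. The groups overlapped because NT7 replicate 1 exceeded HT7 replicate 3. The log2FC was 0.71 (SE 0.24, adjusted p = 0.0264), short of the 0.01 threshold. It ranged from 0.51 without NT7 replicate 2 to 1.05 without NT7 replicate 1, and only the latter was called (adjusted p = 0.00237). Of the other early enzymes, MVK (mevalonate kinase) changed by 0.22, IDI1 (isopentenyl diphosphate isomerase) by 0.03 and FDPS (farnesyl diphosphate synthase) by 0.39, with adjusted p-values of 0.273, 0.954 and 0.183. With 1 sample of day 7 left out, MVK ranged from 0.06 to 0.40, IDI1 from -0.22 to 0.20 and FDPS from 0.19 to 0.51.

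The enzymes after farnesyl diphosphate followed no common direction on day 7. FDFT1, squalene synthase, measured 65.1, 56.8 and 49.3 CPM in HT7 and 74.3, 48.8 and 51.3 CPM in NT7, groups that overlapped throughout, and its log2FC was -0.03 (95% interval -0.41 to 0.35). SQLE, squalene epoxidase, gave 0.07 (95% interval -0.36 to 0.51). Among the enzymes that turn lanosterol into cholesterol, CYP51A1 (lanosterol demethylase) gave 0.55 (SE 0.23, adjusted p = 0.0629) and MSMO1 (methylsterol monooxygenase) 0.41 (SE 0.22, adjusted p = 0.141). NSDHL, a dehydrogenase of the same demethylation, gave -0.22 (adjusted p = 0.388), and SC5D, a sterol desaturase, 0.16 (adjusted p = 0.277). The value of MSMO1 ranged from 0.27 without NT7 replicate 3 to 0.75 without NT7 replicate 1, and only the latter was called (adjusted p = 0.00722).

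IDI1 was the gene with the widest interval of this list on day 7, with 2.08, 2.54 and 1.95 CPM in HT7 and 2.46, 1.35 and 2.62 CPM in NT7. Its lowest count in a sample was 18, the lowest of all 22 genes, and its 95% interval of -0.71 to 0.76 allows a change in either direction.

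The regulators gave no call on any day, and none of the 3 had an unadjusted p below 0.05. SREBF2, which encodes the SREBP that mainly drives sterol genes, measured 216, 179 and 222 CPM in HT7 and 202, 162 and 161 CPM in NT7. The groups overlapped, and the log2FC was 0.23 (95% interval -0.06 to 0.52, adjusted p = 0.175). INSIG1, an SREBP target that retains SCAP in the endoplasmic reticulum, measured 78.7, 78.4 and 64.2 CPM in HT7 and 86.4, 58.2 and 57.0 CPM in NT7, a log2FC of 0.14 (95% interval -0.41 to 0.68). On day 3 its log2FC was 0.52 (adjusted p = 0.350), where HT3 replicate 3, at 116 CPM, stood above the other HT3 samples at 63.9 and 61.7 CPM; without it the log2FC was 0.16. STARD4, a carrier of sterols between membranes, gave -0.17, -0.54 and -0.40 on days 3, 5 and 7. On day 5 it was at -0.92 without HT5 replicate 1 and at -0.25 without HT5 replicate 2. In HT7 it measured 25.7, 49.4 and 27.6 CPM, so that replicate 2 was above all of NT7 except replicate 3 (44.0, 41.1 and 50.4 CPM), and without that sample STARD4 was called at -0.75 (adjusted p = 0.00529), while without HT7 replicate 1 it was at -0.23 and not called.

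The remaining fatty acid enzymes gave small changes on day 7. ACLY and ACSS2, which make cytosolic acetyl-CoA from citrate and from acetate, gave 0.14 (adjusted p = 0.485) and 0.32 (adjusted p = 0.491). The value of ACSS2 rested on single samples, at -0.02 without HT7 replicate 2 and 0.60 without HT7 replicate 1, and that of ACLY ran from 0.06 without NT7 replicate 2 to 0.21 without HT7 replicate 3. ELOVL6, which lengthens saturated chains, measured 12.6, 22.1 and 10.5 CPM in HT7 and 16.3, 15.7 and 11.9 CPM in NT7, with a log2FC of 0.04 (95% interval -0.50 to 0.59). Here HT7 replicate 2 was the highest and HT7 replicate 3 the lowest of the 6 samples, and the log2FC was -0.33 and 0.26 without the one and the other. ELOVL5, which lengthens polyunsaturated chains, measured 92.5, 99.0 and 73.8 CPM in HT7 and 105, 94.8 and 77.3 CPM in NT7, with a log2FC of -0.06 (95% interval -0.37 to 0.25).

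SCD and FADS2, the desaturases, had their largest differences before day 7. SCD, stearoyl-CoA desaturase, makes monounsaturated fatty acids (chromosome 18, 48372855 to 48489674, minus strand). It measured 692, 862 and 806 CPM in HT3 and 537, 449 and 569 CPM in NT3, all HT3 samples being higher. The log2FC of 0.60 was not called (SE 0.16, adjusted p = 0.0903). On day 7 SCD measured 506, 609.7 and 452 CPM in HT7 and 608, 549.7 and 575 CPM in NT7, which overlapped, with a log2FC of -0.14 (adjusted p = 0.476). A second entry of the same symbol lies on the same chromosome at 48289141 to 48299138 on the plus strand, and reads may have been split between the entries, so that the level of SCD is uncertain. That entry gave 0.47 on day 3 (adjusted p = 0.603) and -0.27 on day 7 (adjusted p = 0.590).

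FADS2, the first desaturase of polyunsaturated fatty acids (scaffold GL018717, 2873101 to 2906600, minus strand), measured 55.9, 38.9 and 75.0 CPM in HT3 and 103, 98.6 and 112 CPM in NT3. In HT5 it measured 76.5 and 56.9 CPM, and in NT5 152, 138 and 143 CPM. On both days every hyperoxia sample was below every normoxia sample. The log2FC was -0.88 (SE 0.27, adjusted p = 0.139) on day 3 and -1.11 (SE 0.30, adjusted p = 0.0151) on day 5. On day 7 the HT7 samples, at 138, 55.0 and 92.3 CPM, lay on both sides of NT7, at 114, 91.9 and 128 CPM, and the log2FC was -0.22 (adjusted p = 0.517). It ran from -0.59 without HT7 replicate 1 to 0.06 without HT7 replicate 2.

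**Figure D3:**
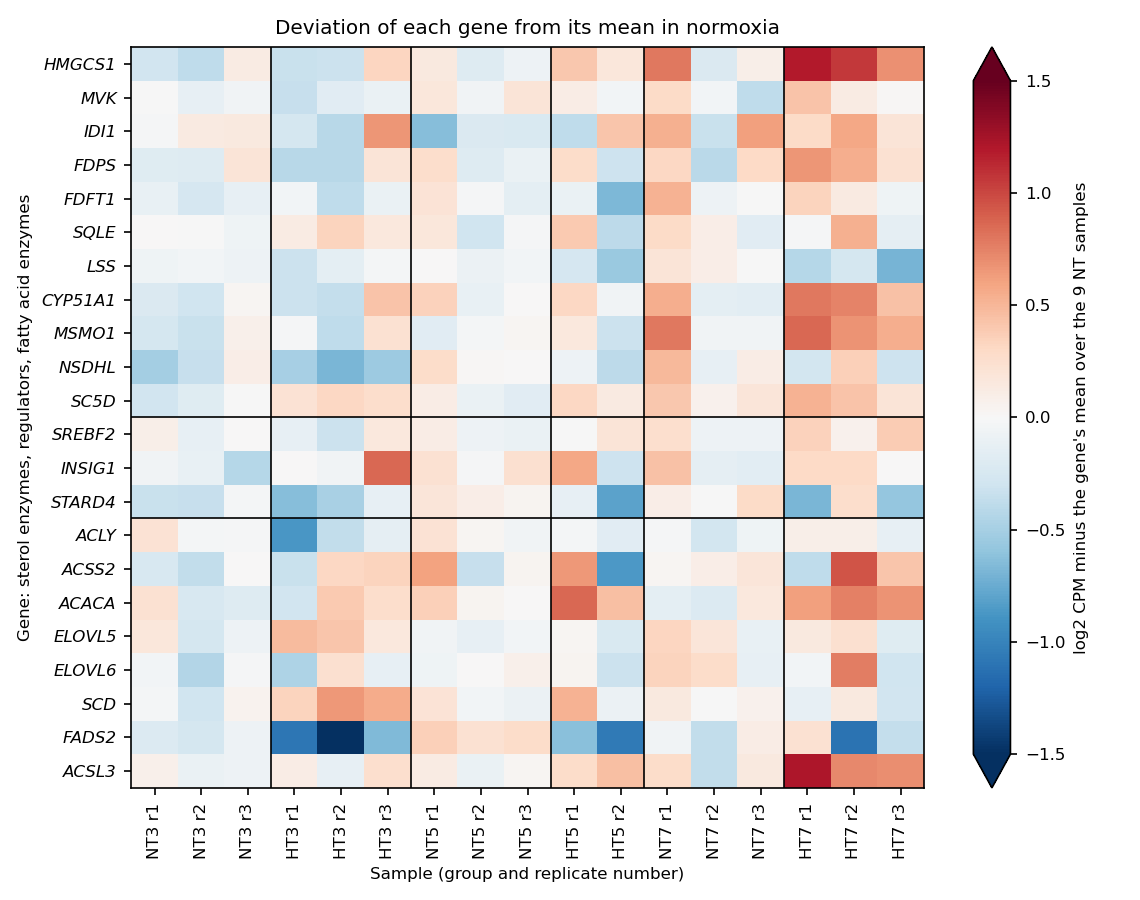
Rows are the 22 genes in pathway order and columns the 17 samples by group; colour gives log2 CPM minus the mean of that gene over the 9 normoxia samples, clipped at 1.5 in either direction. HMGCS1, ACACA and ACSL3 are red across HT7, LSS is blue there, FADS2 is blue in HT3 and HT5, and NT7 replicate 1 is red across most sterol enzymes.

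On day 3, with no call, 5 of the 22 genes had an unadjusted p below 0.05 in edgeR's test and DESeq2 called 0. The 95% intervals excluded 0 for SC5D (0.42, adjusted p = 0.110), ELOVL5 (0.40, adjusted p = 0.203), SCD, ACLY (-0.49, adjusted p = 0.145) and FADS2. The groups did not overlap for SQLE, SC5D and SCD, which were above, and for ACLY and FADS2, which were below, that is for 5 of 22 genes, against 26.7% of all genes. On day 5, 3 of the 22 had an unadjusted p below 0.05 and DESeq2 called FADS2 alone. At an adjusted p-value below 0.05, LSS and FADS2 were lower and no gene was higher, against 31.3% of all genes passing that threshold. The log2FC of LSS and FADS2 was -0.23 and -0.93 without HT5 replicate 2, and -0.52 and -1.34 without HT5 replicate 1. The groups did not overlap for 8 of 22 genes on day 5 (HMGCS1, SC5D, ACACA and ACSL3 above, LSS, NSDHL, STARD4 and FADS2 below), against 55.7% of all genes. On day 7 they did not overlap for ACACA, ACSL3 and LSS only, 3 of 22, against 54.5% of all genes. By direction, 16.7% of all genes were called higher and 16.9% lower on day 7, and at an adjusted p-value below 0.05, which HMGCS1 also passed, 47.4% of all genes were called.

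A positive log2FC on all 3 days was found for 7 genes, ACACA, ACSL3, CYP51A1, HMGCS1, INSIG1, SC5D and SQLE, and a negative one for 5, FADS2, FDFT1, LSS, NSDHL and STARD4. The first count rested on single samples, at 4 without HT5 replicate 1 and 10 without HT5 replicate 2, while the second was 4 or 5 whichever sample was left out. Set side by side, the median log2FC of the sterol enzymes was -0.01, -0.00 and 0.16 on days 3, 5 and 7, that of the fatty acid enzymes 0.16, -0.04 and 0.09, and that of the regulators -0.08, 0.05 and 0.14. The median over all genes tested was 0.00, -0.02 and -0.01. The sterol enzymes ranged from -0.55 to 0.71 on day 7 and the fatty acid enzymes from -0.22 to 0.85, so the lists overlapped over most of their range. Each list held genes of both signs on every day. The medians of day 5 turned on the HT5 samples, at -0.27 for the sterol enzymes, -0.20 for the fatty acid enzymes and -0.47 for the regulators without replicate 1, and at 0.20 and 0.17 for the sterol and fatty acid enzymes without replicate 2.

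The difference between the hyperoxia effects of 2 days was then tested directly. Between days 3 and 7 none of the 22 genes was called (5 with an unadjusted p below 0.05, 1 called by DESeq2), against 7.27% of all genes. At an adjusted p-value below 0.05, which 20.5% of all genes passed, the effect on SCD was lower on day 7 than on day 3 by -0.75 (SE 0.23, adjusted p = 0.0310) and that on ACSL3 was higher by 0.74 (SE 0.24, adjusted p = 0.0407). ACLY gave 0.62 (adjusted p = 0.0549), its level in HT3 being 102, 144 and 170 CPM against 216, 183 and 184 CPM in NT3. Between days 5 and 3 and between days 7 and 5, 0 of the 22 genes and 0% of all genes were called, with 0 and 1 of the 22 at an unadjusted p below 0.05.

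Within hyperoxia the samples of day 7 were also compared with those of day 3, a comparison that shares its HT7 samples with the one against NT7. From HT3 to HT7, HMGCS1 rose 2.10-fold (log2FC 1.07, SE 0.24, adjusted p = 0.00281), from 42.0, 42.4 and 66.2 CPM to the HT7 values above. ACSL3 rose by 0.81 (SE 0.17, adjusted p = 0.00146) and SCD fell by 0.59 on the log2 scale (SE 0.16, adjusted p = 0.00794). For these 3 genes the HT7 samples did not overlap the HT3 samples. These 3 of 22 calls stand against 29.4% of all genes called, 14.3% higher and 15.1% lower. DESeq2 called 4 of the 22, MSMO1 in addition (0.73, adjusted p = 0.00601). The fall of SCD was not called without HT3 replicate 2, HT3 replicate 3, HT7 replicate 1 or HT7 replicate 3 (adjusted p = 0.0354, 0.0223, 0.0288 and 0.0419). The rise of HMGCS1 was not called without HT3 replicate 1, HT3 replicate 2 or HT7 replicate 1 (adjusted p = 0.0159, 0.0167 and 0.0141). At an adjusted p-value below 0.05, which 44.3% of all genes passed, 10 genes were higher in HT7 than in HT3. They were HMGCS1, FDPS, CYP51A1, MSMO1 and NSDHL of the sterol enzymes, SREBF2 of the regulators, and ACLY, ACACA, FADS2 and ACSL3 of the fatty acid enzymes. The median log2FC from HT3 to HT7 was 0.40 for the sterol and 0.38 for the fatty acid enzymes, and 0.03 over all genes. Of 7 proliferation markers 4 were called higher in HT7 than in HT3 (CCNB1, CDK1, AURKB and PLK1). The summed level of all 7 was 66.8 to 83.4 CPM in HT3 and 129 to 322 CPM in HT7. From NT3 to NT7 all 7 had a positive log2FC too, with 0 called and 6 at an unadjusted p below 0.05. Their median was 1.11 from NT3 to NT7, beside 1.58 from HT3 to HT7. From HT3 to HT7, 5 of 10 type 2 markers were lower at an adjusted p-value below 0.05, beside 44.3% of all genes passing it in either direction. None of the 10 was called, and their median log2FC was -0.57. Of the type 1 markers, 5 of 7 and 4 of 5 endothelial markers were called lower, 2 of 8 macrophage markers higher, and 1 of 7 fibroblast markers in each direction. The part of these cells in the result was not tested.

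In normoxia no gene was called with age, among these 22 or among all genes (0% from NT3 to NT5, from NT3 to NT7 and from NT5 to NT7), and DESeq2 called 0 of the 22 from NT3 to NT7. From NT3 to NT7, 1 of the 22 had an unadjusted p below 0.05 (SC5D, 0.38), 21 of 22 had a positive log2FC, and the median was 0.28 for the sterol enzymes, 0.12 for the fatty acid enzymes and 0.01 over all genes. These values rested in part on NT7 replicate 1, without which 17 of 22 were positive and the median of the sterol enzymes was 0.11. HMGCS1 gave 0.45 from NT3 to NT7 (adjusted p = 0.851), beside 1.07 from HT3 to HT7; the difference of these is the day 7 minus day 3 effect, 0.62 (SE 0.34, adjusted p = 0.216). Without NT7 replicate 1 the normoxia value of HMGCS1 was 0.11 and the difference 0.96 (adjusted p = 0.0418), and without NT7 replicate 2 they were 0.65 and 0.42. From HT3 to HT5 and from HT5 to HT7 none of the 22 genes was called (2 and 4 at an unadjusted p below 0.05), against 8.8% and 0.00761% of all genes.

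The samples within a group differed across the sterol enzymes together. NT7 replicate 1 was the highest NT7 sample for 10 of 11 sterol enzymes, HT7 replicate 3 was the lowest HT7 sample for 11 of 11, and HT5 replicate 1 was above HT5 replicate 2 for 10 of 11. As the median deviation from the normoxia mean, the sterol enzymes stood at 0.48, -0.08 and -0.00 in NT7 and at 0.42, 0.54 and 0.19 in HT7. The fatty acid enzymes stood at 0.09, -0.10 and 0.09 in NT7 and at 0.11, 0.48 and -0.15 in HT7. In HT5 both lists were positive in replicate 1, 0.16 each, and negative in replicate 2, -0.32 and -0.20.

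Markers of alveolar type 2 cells, the cells known for making surfactant lipids, differed between the same samples. The surfactant protein genes SFTPC and SFTPB, both among these markers, ranged from 4033 to 12324 CPM and from 3147 to 8089 CPM over the 17 samples. The summed level of the 10 markers was 34338 CPM in HT5 replicate 1 and 13133 CPM in HT5 replicate 2. It was 13967, 30423 and 16816 CPM in HT7 and 24131, 20038 and 17819 CPM in NT7, highest in replicate 1. By gene, 8 of the 10 markers had a negative log2FC on day 7, with a median of -0.37. The summed level ranged from 25632 to 28855 CPM in HT3 and from 18130 to 21103 CPM in NT3, groups that did not overlap, and SCD was higher in HT3 too. HT7 replicate 1 had the lowest marker sum of its group and was the highest HT7 sample for 7 of 11 sterol and 2 of 8 fatty acid enzymes. HT7 replicate 2 had the highest marker sum and was the highest HT7 sample for 4 of 11 sterol and 6 of 8 fatty acid enzymes. On day 7, 1 of 10 type 2 markers was called, NAPSA at -1.49 (adjusted p = 0.00658), beside 33.6% of all genes. At an adjusted p-value below 0.05, which 47.4% of all genes passed, a further marker was lower and SFTPA1 was higher (1.17, adjusted p = 0.0229). On day 3, 9 of 10 had a positive log2FC, with a median of 0.33. On days 3 and 5, 0 of 10 were called (2 and 1 at an unadjusted p below 0.05), beside 0.205% and 16.2% of all genes. The part of type 2 cell content in these results was not tested.

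**Figure D4:**
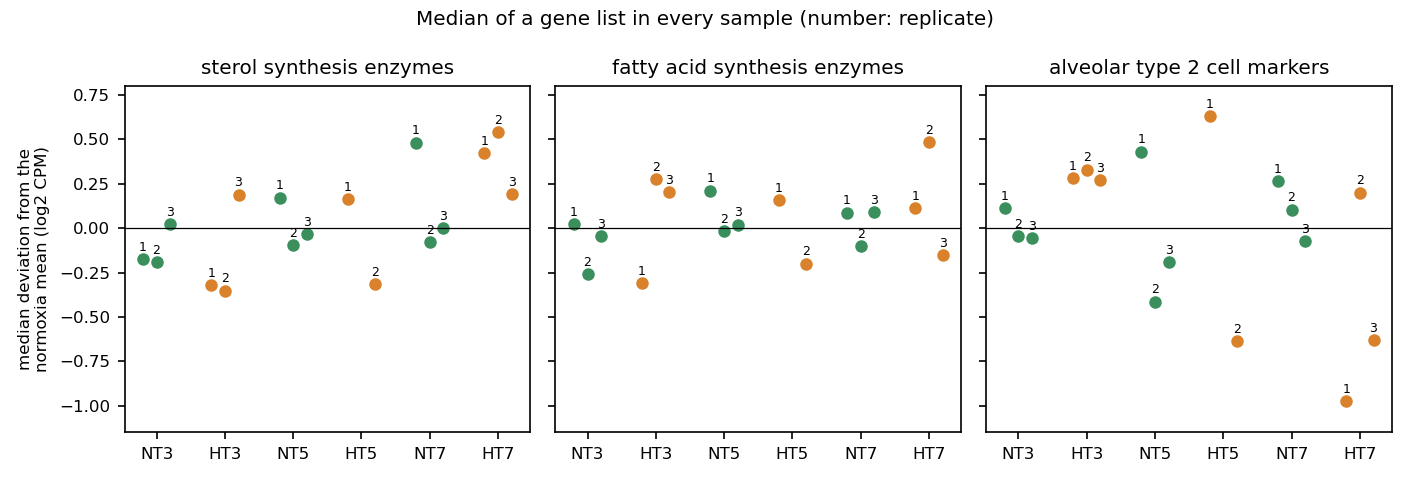
The vertical axis is the median over a list of log2 CPM minus the normoxia mean of each gene, for 11 sterol enzymes, 8 fatty acid enzymes and 10 alveolar type 2 markers, and points are samples numbered by replicate. HT5 replicates 1 and 2 are apart in all 3 panels, and HT7 replicate 1 is low for the markers, at -0.97, but not for the sterol enzymes.

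Other cell markers also moved with hyperoxia. On day 7, 5 of 7 alveolar type 1 markers (AGER, RTKN2, CAV1, CLIC5 and EMP2, not HOPX or PDPN) and 4 of 5 endothelial markers (CDH5, KDR, TEK and ERG, not PECAM1) were called lower, and on day 5, 4 of each, beside 33.6% of all genes called on day 7 (16.9% lower) and 16.2% on day 5. Among 7 fibroblast markers, PLIN2, which coats lipid droplets, was higher on day 7 (log2FC 2.11, SE 0.25, adjusted p = 1.99e-05), TCF21 and FGF10 were lower, and PPARG, COL1A1, COL1A2 and COL3A1 were not called. Of 8 macrophage markers CD68 was higher and MARCO lower, and CSF1R, MRC1, CD163, C1QA, C1QB and C1QC were not called. None of 6 ciliated markers (FOXJ1, DNAH5, TEKT1, PIFO, CCDC39 and RSPH1) and none of 7 proliferation markers (MKI67, TOP2A, CCNB1, CDK1, BUB1, AURKB and PLK1) was called on day 7, with 2 and 0 at an unadjusted p below 0.05. On the earlier days, on which FADS2 was low, all 7 proliferation markers had a negative log2FC. They lay between -1.64 and -1.21 on day 5, where 5 passed an adjusted p-value of 0.05 and 7 of 7 did not overlap, and had a median of -0.83 on day 3, where 6 of 7 did not overlap and none was called. Over all genes 31.3% passed 0.05 on day 5, and 55.7% on day 5 and 26.7% on day 3 did not overlap. The summed macrophage markers ranged from 1742 to 2351 CPM in HT7 and from 1105 to 1323 CPM in NT7, while 5 of the 8 had a negative log2FC, with a median of -0.21. The summed type 1 markers ranged from 2107 to 2815 CPM in HT7 and from 7656 to 8708 CPM in NT7. No marker of these lists was at 0 in any sample. The part of these cells in the values of ACACA, ACSL3, LSS and FADS2 was not tested.

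Of 8 further enzymes of the sterol pathway none was called on day 7 (2 at an unadjusted p below 0.05), beside 33.6% of all genes, 7 of 8 had a positive log2FC, and the median was 0.26. At an adjusted p-value below 0.05, 1 was higher on day 5 and 2 on day 7, and 2 were called higher from HT3 to HT7, beside 31.3% and 47.4% of all genes passing 0.05 on days 5 and 7 and 14.3% called higher from HT3 to HT7. Among those called, GGPS1, which makes geranylgeranyl diphosphate in a side branch, gave 0.63 on day 7 (adjusted p = 0.0143), and rose by 0.72 from HT3 to HT7 (adjusted p = 0.00728). On day 7 ACAT2, PMVK, TM7SF2 and ERG28 were between 0.18 and 0.32 and LBR was at -0.12, all with adjusted p-values above 0.1. The smallest adjusted p-values of the list in edgeR's test, 0.0132 on day 7 and 0.00416 from HT3 to HT7, were not those of GGPS1.

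Of 7 further genes of SREBP control, 2 were called on day 7 and both were lower, beside 33.6% of all genes called and 16.9% called lower. INSIG2, which encodes the other INSIG protein, measured 22.6, 48.7 and 25.7 CPM in HT7 and 86.0, 87.2 and 67.6 CPM in NT7, far apart, with a log2FC of -1.31 (SE 0.26, adjusted p = 0.000861). MBTPS1, the protease that makes the first cut of SREBP in the Golgi, measured 130, 148 and 112 CPM in HT7 and 225, 264 and 236 CPM in NT7, with a log2FC of -0.90 (SE 0.13, adjusted p = 8.70e-05). MBTPS1 was already lower on day 5 (-1.02, SE 0.15, adjusted p = 0.000357). SCAP, the escort of SREBP, gave -0.28 on day 7 (adjusted p = 0.0460), and MBTPS2, the protease of the other cut, 0.26 (adjusted p = 0.105).

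**Figure D5:**
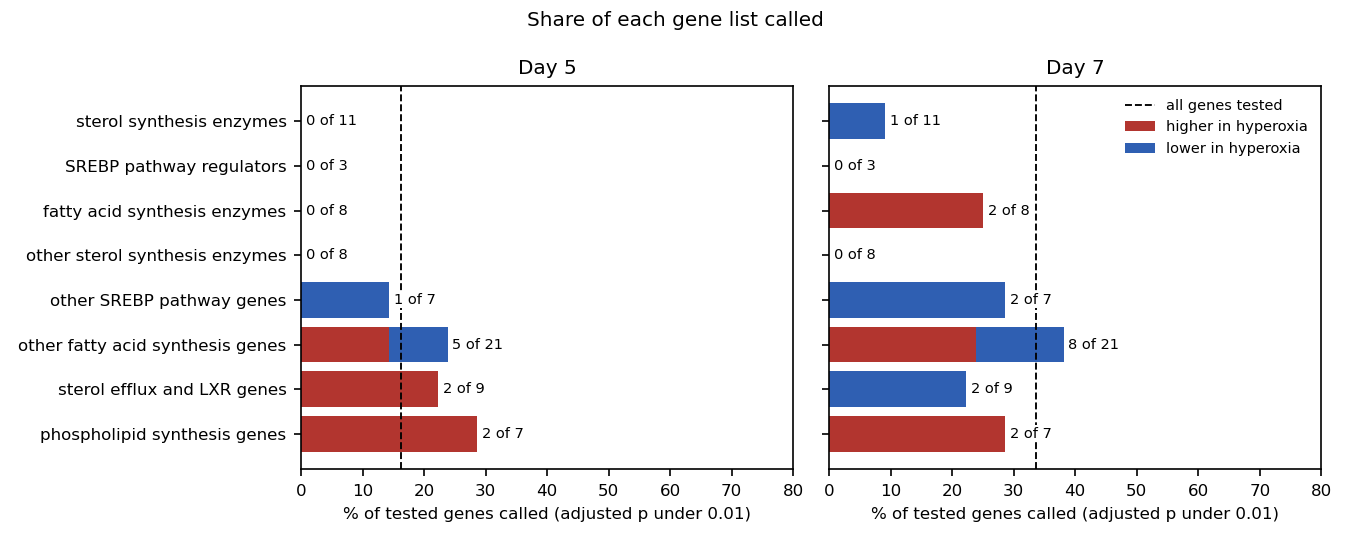
The horizontal axis is the percent of tested genes called in each list on day 5 and day 7, red for higher and blue for lower in hyperoxia, and the dashed line is the share of all genes tested, 16.2% and 33.6%. On day 7 the 3 main lists lie to the left of the line, at 1 of 11, 0 of 3 and 2 of 8 genes, and the other fatty acid genes lie past it at 8 of 21.

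Further genes of fatty acid synthesis were called in both directions, 3 higher and 2 lower of 21 on day 5 and 5 higher and 3 lower on day 7. At an adjusted p-value below 0.05, 11 were higher and 3 lower on day 7, 14 of 21 had a positive log2FC, and the median was 0.56. Of all genes on day 7, 33.6% were called and 47.4% passed 0.05. The largest changes among those called on day 7 were in SCD5, HACD1 and ACACB. SCD5, a second stearoyl-CoA desaturase, measured 1.73, 4.11 and 1.84 CPM in HT7 and 7.79, 10.7 and 13.9 CPM in NT7 (log2FC -2.08, SE 0.37, adjusted p = 0.000399), whereas SCD gave -0.14. ACACB, the mitochondrial acetyl-CoA carboxylase, whose malonyl-CoA restrains fatty acid oxidation, measured 22.0, 57.8 and 23.4 CPM in HT7 and 102, 117 and 98.6 CPM in NT7 (log2FC -1.62, SE 0.33, adjusted p = 0.00109). The cytosolic enzyme ACACA was called in the other direction. HACD1, a dehydratase of chain elongation, measured 23.5, 15.6 and 28.4 CPM in HT7 and 6.36, 6.41 and 5.92 CPM in NT7 (log2FC 1.85, SE 0.25, adjusted p = 5.67e-05). HT7 replicate 2 was the HT7 sample nearest to NT7 for each of these 3 genes.

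Sterol efflux and phospholipid genes were read beside the synthesis genes. On day 5, ABCA1, which exports cholesterol, was higher (1.29, SE 0.28, adjusted p = 0.00366), as was LPCAT3, an acyltransferase of phospholipid remodelling (0.82, SE 0.19, adjusted p = 0.00551). On day 7 those 2 were at 0.62 (adjusted p = 0.0563) and 0.58 (adjusted p = 0.0128), and 2 of 9 genes of the list were called, both lower, again beside 33.6% of all genes. NR1H3, which encodes the sterol sensor LXR-alpha, fell by 1.07 on the log2 scale (SE 0.15, adjusted p = 5.54e-05) and NPC1, which moves cholesterol out of lysosomes, fell by 0.47 (SE 0.12, adjusted p = 0.00556). NR1H2, MYLIP, SOAT1, NPC2 and CH25H were not called, with log2FC from -1.32 for CH25H to 0.17 for NR1H2. Of 7 genes of phospholipid synthesis, CEPT1 (0.82, SE 0.11, adjusted p = 5.76e-05) and PCYT1A (0.79, SE 0.12, adjusted p = 9.39e-05), enzymes of phosphatidylcholine synthesis, were higher on day 7 and on day 5, where 33.6% and 16.2% of all genes were called. CHKA (0.38), LPCAT1 (0.31), GPAM (-0.79), LPIN1 (0.05) and LPIN2 (-0.15) were not called on day 7. On day 3 no gene of any of these lists was called by edgeR, with 0 to 5 genes per list at an unadjusted p below 0.05.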

How the data were processed

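The authors deposited raw counts per locus for each sample, without normalization. FastQC, STAR 2.7.10a and the build OryCun2.0 are named in the submitters' processing notes, locus labels have the StringTie form, and the counting program is not given in the sources used here. Positions are those of the deposited table. None of the 22 genes shares its locus with another entry.

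Testing used edgeR 4.0.16 under R 4.3.3, with filterByExpr (13142 genes tested, 685 not), TMM factors and a quasi-likelihood fit of 6 group means to all 17 samples. The Benjamini-Hochberg adjustment covered every tested gene, with a threshold of 0.01 and, for the study's stricter rule, a log2FC beyond 2. A prior count of 0.125 was used for the log2FC. DESeq2 1.42.0 was an alternative, and figures used pandas 2.3.3 and matplotlib 3.10.9. The fits were tested on simulated data. Members, gene lists and tests were chosen with earlier results of these data known.

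Every member is named. Values in every sample follow the rule of being called on any day, or being among the 2 genes of a list with the smallest change on day 7; those of HMGCS1 and SCD (called from HT3 to HT7), FADS2, STARD4, ACLY and the further genes were added after the values were seen. Of the other lists with 10 or fewer genes most genes are named, and some counted genes are not reported here; of the longer list, the 3 called genes with the largest change are named. Of the type 2 markers only 4 are named. The labels do not say that samples of a group came from separate litters, so p-values measure the spread between these samples.

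Deviations of samples with the same replicate number correlated at 0.170, 0.117 and 0.156 on day 3, 0.226 and 0.117 on day 5 and 0.146, 0.0847 and 0.0516 on day 7. The values on day 5 were about as high as those on day 3, and 0.0847 and 0.0516 on day 7 were the lowest. Whether the numbers pair samples is thus not settled, and their meaning is not stated in the labels. Alternatives covered the test, normalization, filter, thresholds, samples in the fit, entries per locus, the replicate block and leaving out each sample.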

Additional observations from a re-analysis of the deposited data

Results flagged for a closer look

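For 2 genes the effect of hyperoxia differed between day 3 and day 7 by the test of that difference itself, at an adjusted p-value below 0.05 in edgeR's quasi-likelihood test, which 20.5% of all genes passed. For SCD the difference, day 7 minus day 3, was -0.75 on the log2 scale (SE 0.23, adjusted p = 0.0310): all 3 HT3 samples were above all 3 NT3 samples, and the day 7 groups overlapped. The second entry of the SCD symbol gave -0.74 (SE 0.55, adjusted p = 0.357). For ACSL3 the difference was 0.74 (SE 0.24, adjusted p = 0.0407), the HT7 samples lying above NT7 while the day 3 groups overlapped. Neither passed 0.01, and when each of the 12 samples was left out in turn, the adjusted p ranged from 0.0109 to 0.0787 for SCD and from 0.0245 to 0.107 for ACSL3.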

How the results depend on the processing

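Of 1782 values of the 22 genes under the alternatives, 1741 kept their direction and side of the threshold or were uncalled in both, 17 lost and 24 gained a call, and none was called in the opposite direction. Among the uncalled, 94 changed sign. Counts of genes called: on day 5, lower, 2 at an adjusted p-value of 0.05 and 1 with DESeq2 (FADS2, adjusted p = 0.00189), against 0. On day 7, higher, 0 with the fold rule and 1 with samples of the day alone, against 2; lower, 0 with the fold rule and 0 with the day alone, against 1. ACSL3 and LSS had adjusted p-values of 0.0130 and 0.0176 in the fit of the day alone, which has fewer samples. For day 7 minus day 3, 1 was higher at 0.05, and 1 was lower at 0.05 and with DESeq2 (SCD, 0.00942), against 0. From HT3 to HT7, 10 were higher at 0.05, against 2, and 0 lower with the replicate block across days, against 1 (SCD, adjusted p = 0.0109). The cause of the other changes was not tested.

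Leaving out 1 sample, the counts ranged from 1 to 3 higher and 1 to 2 lower on day 7, and from 1 to 5 higher and 0 to 1 lower from HT3 to HT7. The other counts stayed at 0. The count of 1 higher on day 7 arose without HT7 replicate 3 or NT7 replicate 2. The 5 came without HT3 replicate 3. Medians ranged on day 5 from -0.27 to 0.20 for sterol enzymes, -0.47 to 0.083 for regulators and -0.20 to 0.17 for fatty acid enzymes, the extremes mostly without an HT5 replicate. On day 7 they ranged from 0.09 to 0.26, 0.030 to 0.35 and 0.02 to 0.24, and on day 3 from -0.17 to 0.16, -0.21 to 0.03 and 0.10 to 0.28.

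With the replicate number as a block within day, no call changed on day 3 (2 genes in all were called, against 27). With the same block on day 7, ACACA was not called (0.75, adjusted p = 0.0121) and HMGCS1 was (0.75, adjusted p = 0.00366). On day 3, 6 of 6 samples correlated best with their own number in the other condition, and on day 7, 5 of 6. This is a hint from the data and not from the design. Over all genes, DESeq2 called 204 on day 3, and on day 5 the count of 2126 was 967 with the block, 12 with the day alone and 221 without HT5 replicate 2. On day 7 the day alone gave 2924 against 4413. The fold rule gave 7, 208 and 603 genes on days 3, 5 and 7, and the threshold of 0.05 gave 136 and 4115 on days 3 and 5. For day 7 minus day 3, the 955 genes became 1907 with DESeq2, 600 with the block, 2693 at 0.05, and between 358 (without NT7 replicate 2) and 1967 (without HT7 replicate 2) with 1 sample left out. From NT3 to NT7, DESeq2 called 11, and from HT3 to HT7 the 3869 became 5821 at 0.05. Depth limits IDI1 most among the 22 genes. The 2 samples of HT5 limit day 5, where a missing call does not show that values did not differ.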
